A study of Mus musculus with 16 samples.

Results

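Pancreatic, gastric and intestinal digestive genes were measured in medullary thymic epithelial cells (mTEC) of mice. The set was 35 genes chosen by symbol, namely 5 stomach, 19 pancreas and 11 gut genes, out of 53464 Ensembl genes in the count table. All 35 symbols had a row, and 34 of them are protein-coding in the GENCODE M21 annotation of GRCm38, the exception being Amy2b, which is annotated there as an unprocessed pseudogene. Libraries came from 8 mice, each of which gave 1 library of mature and 1 of immature mTEC, sorted as CD45-, EpCAM+, Ly51- and UEA+ cells with high (mature) or low (immature) MHCII. In the Rbfox1 line, 2 thymus knockout (tKO) mice of genotype Rbfox1 lox/lox with Foxn1 wildtype/cre were compared with 2 control mice of genotype Rbfox1 lox/lox with Foxn1 wildtype/wildtype. The Rbfox2 line had the same layout with Rbfox2 lox/lox, so every mouse carried floxed alleles and the Cre allele always went together with loss of the RBFOX splicing factor. Each condition had 1 female and 1 male mouse of 4 to 6 weeks. The labels give the strain as C57BL/6, and the methods give a mixed background with 129S2/Sv for the mutant lines. Cre was driven by the Foxn1 locus, which is active in thymic epithelium, and libraries came from single mice, with 10000 cells sorted per population.

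Digestive enzymes are made in bulk by only a few cell types of the body. Acinar cells of the pancreas secrete proteases as inactive zymogens together with lipases and amylase, chief cells of the stomach secrete pepsinogens, parietal cells acidify the stomach through a proton pump, and enterocytes carry sugar- and peptide-cleaving enzymes on their brush border. Mature mTEC are known to transcribe a great many such tissue-restricted genes at low level and in few cells at a time, which exposes developing T cells to peripheral proteins. The transcriptional regulator Aire is needed for many of these transcripts. In bulk libraries such as these, fewer cells that express a gene and less RNA per cell cannot be told apart.

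The promoters are shown first because several members with very different levels in mTEC have the same core element. RefSeq promoter sequence of build GRCm38.p6, from 250 bases before to 50 bases after the annotated start, was found for 31 of the 35 members and not for Clps, Ctrc, Atp4b and Pga5. The TATA box, searched for as TATAAA on the sense strand with its first base 40 to 20 bases before the start, was in 8 of the 31 (25.8%) and in 655 of 32851 promoters overall (1.99%). The 30-base windows of the 8 members are given 5′ to 3′ on the strand of the gene, with TATAAA in capitals.
Pgc, chr17:47726803-47726832, plus strand: cctgggtgTATAAAaggaaggagtcccgct
Gp2, chr7:119459283-119459312, minus strand: agtgtcagTATAAAggagtcaggccgtagg
Prss1, chr6:41458891-41458920, plus strand: aattggggTATAAAggcaggcttccatcca
Cela1, chr15:100687926-100687955, minus strand: aagaggcgTATAAAgagggctcggttcatg
Pnlip, chr19:58670327-58670356, plus strand: cactcaccTATAAAagggcatatcagtgtt
Amy2b, chr3:113156732-113156761, minus strand: tgtcaggaTATAAAtgggtgctacagagaa
Mgam, chr6:40628793-40628822, plus strand: aaaggcagTATAAAatggtggaacagtagg
Fabp1, chr6:71199841-71199870, plus strand: aatcccctTATAAAataggcaacagtgggt
Pgc and Gp2 had the highest levels of all 35 members per length in mature control libraries, while Amy2b had no count in any library. Over the whole 300 bases and on both strands, TATAAA was in 41.9% of the members' promoters and 13.6% of all promoters. The letters TTTATG, the core of the site bound by CDX factors, were in 32.3% of the members' and 11.9% of all promoters. By organ they were in 36.4% of 11 gut, 35.3% of 17 pancreas and 0% of 3 stomach promoters. Matches of different motifs may overlap one another, and a match describes the sequence only.

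The library total ranged from 3737884 to 4636367 counts in mature mTEC and from 1506134 to 2430287 in immature mTEC. CPM here is a library's count of a gene divided by that total and scaled to 1e+06, and intervals and limits given for counts cover counting error only. In the Rbfox2 line, mature mTEC had 57.4 to 58.0 CPM of Rbfox2 in control and 9.36 to 16.03 in tKO mice, and immature mTEC had 90.2 to 98.8 and 22.4 to 35.9 CPM. Rbfox1 had 31.1 to 34.9 CPM in mature libraries of the Rbfox1 tKO mice against 50.3 to 53.3 in their controls, but 150.2 to 156.6 against 160.9 to 165.0 in immature ones, where reads were counted over the whole gene and check the deletion only in part. The mTEC markers Aire, Cd80 and Cd40 were higher in mature mTEC of control mice, and Krt5 and Krt14 lower, of 10 mTEC markers tested.

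Mature mTEC contained transcripts of nearly the whole digestive set, and immature mTEC of a smaller share. To compare detection at equal depth, every library was thinned at random to 1506134 counts, the total of the smallest. A mean of 30.6 ± 0.52 members (SD, n = 8 mice) then had at least 1 count in mature mTEC, against 17.0 ± 2.45 in immature mTEC. The ranges were 30 to 31 and 14 to 21 members and did not overlap. The share of all genes detected at this depth was not computed, so whether the difference is particular to these members was not tested. With all counts kept, 32.2 ± 0.89 and 18.9 ± 3.31 members were detected.

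The organs differed in how much of their list was seen. All 5 stomach and all 11 gut members were detected in each of the 8 thinned mature libraries, whereas 14 to 15 of the 19 pancreas members were. Thinned immature libraries had 1 to 4 stomach, 4 to 10 pancreas and 6 to 10 gut members. The pancreas genes missing from some thinned mature libraries were Cela3b, Ctrl, Ctrc, Cpa1, Cpb1, Amy1 and Amy2b, and the remaining 12 were in all 8. Amy2b had 0 counts in all 16 libraries, which over the 8 mature libraries together allows no more than 3 counts. Amy1, the salivary and liver amylase, had 1 count in each of 4 mature libraries, and Ctrc, a chymotrypsinogen, had 1 count in each of 3. Cela3b, an elastase, had 9 counts in all over the mature libraries of control and tKO mice, 6 and 3. Ctrl, a chymotrypsin-like protease, and Cpa1, carboxypeptidase A1, each had 7 of 8 mature libraries with a count, but no more than 6 counts in any. Ctrc shares 305 exon bases with Cela2a, and Amy1 shares 1128 with Rnpc3, so counts of these genes are uncertain. Reads that match several similar amylase copies could also be missed, so the low amylase counts do not show absence.

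**Figure D1:**
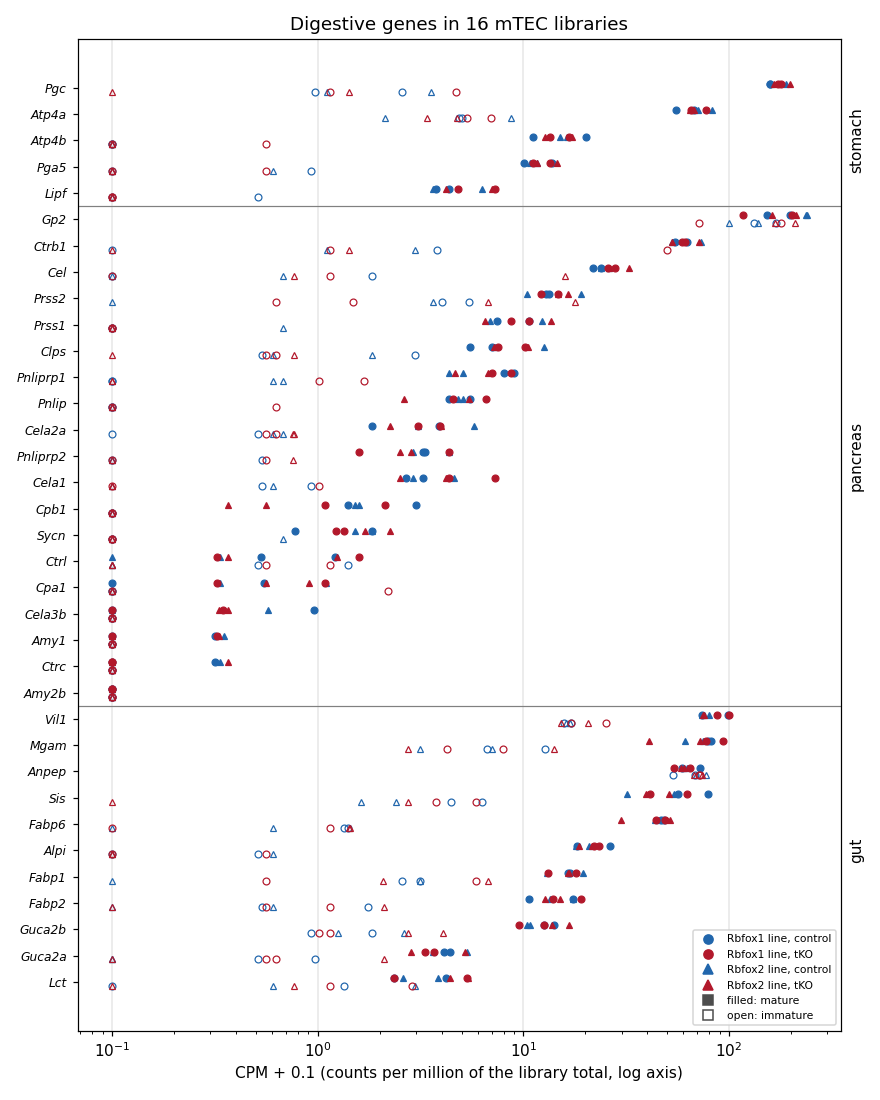
CPM of the 35 members in each of the 16 libraries, on a log axis after adding 0.1, ordered within each organ by the mean CPM of mature control libraries; filled symbols are mature and open symbols immature libraries, circles the Rbfox1 and triangles the Rbfox2 line, blue control and red tKO. Filled symbols lie to the right of all open ones for most members, while they mix for Gp2 and Anpep and reach only a few counts for the last pancreas genes.

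Stomach genes differed clearly between the populations. Pgc (ENSMUSG00000023987, chromosome 17, 47726842 to 47734482) encodes pepsinogen C, the zymogen of gastricsin. In mature mTEC of control mice it had 158.7 and 158.1 CPM in mice 2 and 3 of the Rbfox1 line and 188.8 and 160.3 CPM in mice 1 and 2 of the Rbfox2 line. The immature libraries of the same mice, in that order, had 2, 6, 2 and 6 counts. Every mature library was thus far above every immature one, and 3 of the 4 mature values lay between 158.1 and 160.3 CPM. The log2 fold change of mature over immature mTEC was 6.38 (SE 0.19, adjusted p = 6.64e-12, quasi-likelihood test of edgeR, adjusted over 15357 genes by the method of Benjamini and Hochberg, n = 4 mice).

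The proton pump of parietal cells was present with both of its subunits. Atp4a (ENSMUSG00000005553, chromosome 7, 30712209 to 30725534), the catalytic subunit, had 55.0, 67.3, 82.9 and 70.8 CPM in the mature libraries of the control mice, and 11, 12, 4 and 15 counts in the immature ones. Its log2 fold change was 3.72 (SE 0.21, adjusted p = 2.36e-09). Atp4b (ENSMUSG00000031449, chromosome 8, 13386205 to 13396825), the glycosylated partner subunit, had 51, 90, 64 and 65 counts in mature control libraries, a mean of 15.6 ± 3.75 CPM (SD, n = 4). All 4 immature control libraries were at 0 for Atp4b, so the level in mature mTEC was at least 43.7-fold higher against the 3 counts that a group at 0 allows over the whole group. Atp4a was counted in every immature library and Atp4b in 1 of 8, but Atp4a also had more counts in mature control libraries, 1194 against 270. Their mature levels per length were 18.3 ± 3.05 and 10.3 ± 2.49 CPM per kb of exon (SD, n = 4).

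The remaining stomach members had fewer counts. Pga5, a pepsinogen, had 199 counts over the 4 mature and 3 over the 4 immature control libraries, a ratio of 32.2 after scaling to the totals (95% interval 10.9 to 158, from an exact binomial interval). Lipf, gastric lipase, had 76 and 1 counts, a ratio of 36.9 with an interval of 6.43 to 1478. Both were called higher, so that 5 of 5 stomach members were higher in mature mTEC, against 23.7% of all genes tested. Members with enough counts for a test in the mature libraries alone had to differ. Pgc supplied 62.4% and Atp4a 25.8% of the stomach counts of mature control libraries. In immature control libraries the order was the other way round, with 67.7% from Atp4a and 25.8% from Pgc, of 62 counts in all.

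Pancreatic genes split into Gp2 and the rest. Gp2 (ENSMUSG00000030954, chromosome 7, 119442537 to 119459285) encodes glycoprotein 2, the main membrane protein of zymogen granules, and is also a marker of microfold cells of the gut. It had 197, 154, 238 and 238 CPM in mature libraries of the control mice and 168, 132, 138 and 99.99 CPM in the immature ones. Mature exceeded immature mTEC in 4 of 4 control mice, but the ranges of the 2 populations overlapped. Its log2 fold change of 0.55 (SE 0.15, adjusted p = 0.0045) did not reach the threshold of 1 used for calls. Gp2 alone made up 93.7% of the pancreas counts of immature control libraries and 59.3% of those of mature ones.

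The proteases and lipases behaved differently from Gp2. Ctrb1 (ENSMUSG00000031957, chromosome 8, 111686519 to 111691010), chymotrypsinogen B1, had 62.1, 54.6, 52.8 and 72.5 CPM in mature control libraries and 0, 9, 2 and 5 counts in immature ones. The log2 fold change was 4.92 (SE 0.32, adjusted p = 9.28e-09). Prss2 (ENSMUSG00000057163, chromosome 6, 41521787 to 41525079), a trypsinogen, had 13.2, 12.7, 10.3 and 18.9 CPM in mature and 9, 13, 7 and 0 counts in immature control libraries. It rose by 1.97 on the log2 scale (SE 0.40, adjusted p = 0.000542), the smallest difference among the called pancreas members. Trypsinogens are a family of near-identical copies, and reads could be split between Prss1, Prss2 and further copies, so their single values are uncertain. Cel, bile salt-dependent lipase, chosen after its values were seen, had 21.6, 23.7, 26.1 and 23.9 CPM in mature and 4, 0, 0 and 1 counts in immature control libraries, with a log2 fold change of 5.19 (SE 0.41, adjusted p = 6.42e-08).

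Of 19 pancreas members, 8 had enough counts to be tested, most of them in the mature libraries alone, so that these had to differ. Of the 8, 7 were higher in mature control mTEC, against 23.7% of all genes tested, Gp2 being the exception. Besides Ctrb1, Prss2 and Cel these were Prss1 (159 mature against 1 immature count), Pnlip (pancreatic lipase, 84 against 0, at least 13.6-fold), Pnliprp1 (a lipase-related protein, 115 against 2) and Clps (colipase, 138 against 12). Among those not tested, the mature range lay above the immature range for Cela1, Cela2a, Pnliprp2, Cpb1 and Sycn, which had 24 to 61 counts over the mature control libraries. Sycn encodes syncollin of the zymogen granule, Cpb1 carboxypeptidase B1, and Cela1 and Cela2a are elastases.

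Gut genes were mostly higher in mature mTEC, with Anpep as the exception. Fabp6 (ENSMUSG00000020405, chromosome 11, 43596049 to 43601540), the ileal bile acid-binding protein, had 48.1, 46.5, 45.8 and 43.7 CPM in mature control libraries and 3, 3, 1 and 0 counts in immature ones. The 4 mature values had a highest-to-lowest ratio of 1.10, and the log2 fold change was 5.70 (SE 0.27, adjusted p = 3.55e-10). Fabp1 (ENSMUSG00000054422, chromosome 6, 71199827 to 71205023), the fatty acid-binding protein of liver and proximal gut, had 16.4, 16.8, 12.9 and 19.4 CPM in mature libraries. It had 7, 6, 6 and 0 counts in immature ones, and a log2 fold change of 2.81 (SE 0.36, adjusted p = 7.91e-06).

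Vil1 and Anpep of the brush border were plainly present in immature mTEC. Vil1 (ENSMUSG00000026175, chromosome 1, 74409376 to 74435559), which encodes the actin-bundling protein villin, had 98.6, 74.0, 73.7 and 79.5 CPM in mature control libraries. The immature libraries had 16.9, 15.6, 16.7 and 16.1 CPM, a spread of 0.58 CPM (SD, n = 4), and the log2 fold change was 2.28 (SE 0.14, adjusted p = 3.72e-09). Vil1 shares 49 exon bases with Usp37 on the opposite strand. Anpep (ENSMUSG00000039062, chromosome 7, 79821803 to 79861059), aminopeptidase N, was chosen after its values were seen. It had 58.7, 72.0, 62.2 and 59.6 CPM in mature and 68.0, 53.5, 68.9 and 77.0 CPM in immature control libraries. The ranges overlapped, and the log2 fold change was -0.12 (SE 0.12, adjusted p = 0.391). Aminopeptidase N is also found outside the gut, on myeloid cells, fibroblasts and pericytes among others.

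In all, 9 of the 10 gut members tested were higher in mature control mTEC, against 23.7% of all genes tested. The others were the disaccharidases Sis and Mgam, Fabp2, the brush border phosphatase Alpi (361 counts in mature against 2 in immature libraries), and the peptide hormones Guca2a and Guca2b, which act on guanylate cyclase C. Sis and Mgam had log2 fold changes of 3.87 (SE 0.28) and 3.30 (SE 0.19). Gut members with enough counts in the mature libraries alone had to differ. Lct, lactase, was not tested, and had 55 counts in mature and 9 in immature control libraries with overlapping ranges.

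Over the 3 organs, 21 of the 23 members tested were higher in mature mTEC of control mice and none was lower, at an adjusted p under 0.05 and a log2 fold change over 1. Of all 15357 genes tested, 23.7% were higher and 10.8% lower by the same rule (34.4% in all). Most members passed the filter on low counts through the mature libraries alone and so had to differ. With at least 10 counts required in every library, only Vil1, Gp2 and Anpep were tested, and 1 of the 3, Vil1, was higher. The median log2 fold change of the 23 was 4.25, or 3.87 with Atp4b and Pnlip set at their lower bounds, against 0.02 for all genes tested. Counting all 35 members without a filter, the mature range was above the immature range in control mice for 26, against 21.4% of the table's rows with a count, and the immature range was above for none, against 8.61%.

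Summed over an organ's members, stomach genes had 267 ± 26.1 CPM in mature and 7.47 ± 3.71 CPM in immature control libraries (SD, n = 4). Pancreas genes had 348 ± 47.5 and 144 ± 28.3 CPM, or 141 ± 13.04 and 8.97 ± 3.15 CPM without Gp2. Gut genes had 391 ± 42.2 and 101 ± 8.62 CPM, or 328 ± 43.0 and 34.0 ± 5.94 CPM without Anpep. The difference between the organs in immature mTEC thus lay largely in Gp2 and Anpep, which were left out after their values were seen.

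**Figure D2:**
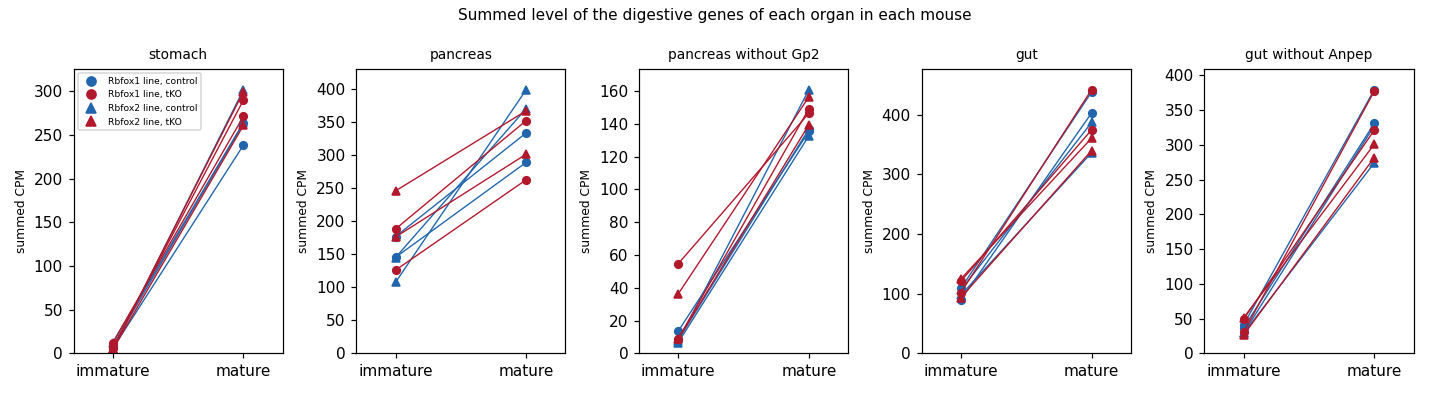
Summed CPM of the stomach, pancreas and gut members in the immature and mature library of each of the 8 mice (lines join the libraries of a mouse), with the pancreas also shown without Gp2 and the gut without Anpep. Every line rises, by 21.9 to 85.1 times for the stomach and by 1.49 to 3.71 times for the pancreas with Gp2.

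The maturation difference was also seen in tKO mice, whose libraries are separate from those of the controls. Of 21 members tested, 19 were higher in mature mTEC and none lower, while 23.2% of all 15189 genes tested were higher and 11.5% lower (34.7% in all). As in control mice, most members passed the filter through the mature libraries alone and so had to differ. With at least 10 counts required in every library, only Vil1, Gp2 and Anpep were tested, and Vil1 alone was higher. Stomach members were higher in 5 of 5 cases, pancreas members in 6 of 7 and gut members in 8 of 9. Pgc had a log2 fold change of 6.45 (SE 0.25, adjusted p = 1.19e-12), Atp4a one of 3.69 (SE 0.17, adjusted p = 1.23e-11) and Vil1 one of 2.09 (SE 0.13, adjusted p = 4.94e-10). For Fabp6 the value was 5.60 (SE 0.38, adjusted p = 1.09e-09) and for Fabp1 it was 2.12 (SE 0.37, adjusted p = 7.89e-05). The mature range was above the immature range for 25 of the 35 members, with a background of 20.8%. In 25 members the mature library was higher in all 8 mice, and the share of all rows for which this held was not computed.

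Prss2, Ctrb1 and Cel had smaller differences in tKO mice, at 1.29 (SE 0.43, adjusted p = 0.0154), 2.06 (SE 0.55, adjusted p = 0.00334) and 2.82 (SE 0.50, adjusted p = 8.95e-05). Without the immature library of mouse 2 or of mouse 3 of the Rbfox1 tKO mice, Prss2 was no longer called, with log2 fold changes of 0.96 (adjusted p = 0.0558) and 0.92 (adjusted p = 0.0503). The 8 values of Prss2 in tKO mice were 14.5, 12.1, 16.3 and 14.7 CPM in mature and 1.38, 0.52, 6.64 and 17.8 CPM in immature libraries. The immature library of mouse 2 of the Rbfox2 tKO mice was above its own mature library.

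Gp2 and Anpep were again apart from the rest. Gp2 had 116, 203, 162 and 210.4 CPM in mature and 71.2, 179, 167 and 209.5 CPM in immature tKO libraries, in the order Rbfox1 mice 2 and 3 and Rbfox2 mice 1 and 2. Its log2 fold change was 0.14 (SE 0.21, adjusted p = 0.581). The sign of this value turned without the immature library of mouse 2 (-0.12) or the mature library of mouse 3 (-0.06) of the Rbfox1 tKO mice. Anpep had 64.7, 53.6, 59.9 and 58.2 CPM in mature and 71.6, 71.8, 73.7 and 67.2 CPM in immature tKO libraries. All 4 immature values were above all 4 mature ones, which was so for 8.27% of the table's rows with a count, and the log2 fold change was -0.30 (SE 0.10, adjusted p = 0.0131), within the threshold for calls.

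**Figure D3:**
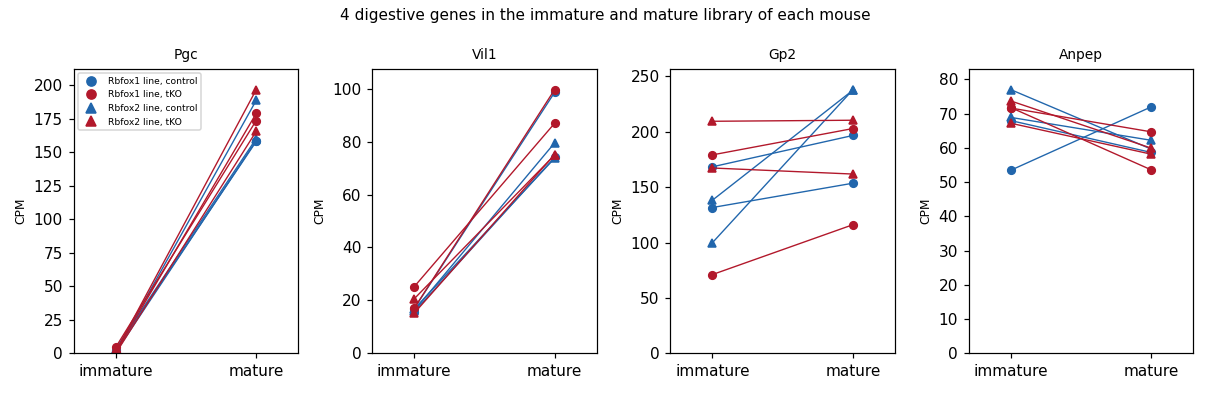
CPM of Pgc, Vil1, Gp2 and Anpep in the immature and mature library of each mouse, with lines joining the libraries of a mouse, each axis starting at 0. Pgc and Vil1 rise in all 8 mice, Gp2 rises in 7 of 8 and Anpep in 1 of 8.

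Whether the maturation difference depended on genotype was tested as an interaction over all 16 libraries. For Lipf, Atp4b, Prss1, Pnlip and Pnliprp1 no standard error could be estimated and p was near 1 whatever the counts, so these 5 of the 27 members fitted are no test. None of the other 22 had an adjusted or an unadjusted p under 0.05 in edgeR's test, and 0% of 17442 genes passed after adjustment, while 5.2% had an unadjusted p under 0.05. DESeq2 called none either. With the mouse as a block, since both libraries of a mouse share it, 49 of the 17442 genes reached the threshold and 1 of them was a member. This was Gp2, whose difference between mature and immature mTEC, averaged over the lines, was smaller in tKO mice by 0.41 on the log2 scale (log2 -0.41, SE 0.10, adjusted p = 0.0411 in edgeR's test). Control mice of the Rbfox2 line had 238 and 238 CPM in mature against 138 and 99.99 CPM in immature libraries. Their tKO mice had 162 and 210.4 against 167 and 209.5 CPM. In the Rbfox1 line, control mice had 197 and 154 against 168 and 132 CPM. The tKO mice of that line had 116 and 203 against 71.2 and 179 CPM. The smaller difference was thus plain in the Rbfox2 line only. The mature exceeded the immature library for Gp2 in 4 of 4 control and 3 of 4 tKO mice.

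Immature libraries were not uniformly low for the pancreatic zymogens. Ctrb1 had 108 counts in the immature library of mouse 2 of the Rbfox1 tKO mice, or 49.6 CPM, and no more than 9 counts in any of the other 7 immature libraries. That library was close to the mature range of 52.7 to 72.5 CPM. In the same library Prss2 had 3 counts, Clps 1, and Cel, Prss1 and Pnlip 0. The immature library of mouse 2 of the Rbfox2 tKO mice had 27 counts of Prss2 and 24 of Cel, while Ctrb1 had 2 counts there and Clps and Prss1 had 0. The next highest immature libraries had 13 counts of Prss2 and 4 of Cel. The zymogens and lipases high in 1 of these libraries were thus low in the other.

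The Ctrb1 values spread more than counting error gives, while Prss2 and Cel had too few counts for the same measure. Over the 8 immature libraries the chi-square per degree of freedom was 75.7 for Ctrb1, against a median of 2.01 over the 12238 rows with at least 80 counts. Ctrb1 passed the limit of 80 counts only through the library with 108 counts. Its value therefore had to be high and restates that library. The mature libraries of the same 2 mice were not unusual, with 58.6 CPM of Ctrb1 in the former and 14.7 CPM of Prss2 and 25.9 CPM of Cel in the latter. Leaving out all libraries of both mice gave 21 of 23 members higher in mature mTEC of tKO mice, against 19 of 21 with them, a check chosen after the data were seen. Members that passed the filter through the mature libraries alone had to differ here too. The share of all genes called in this fit was not set beside the count, which is a description. The log2 fold changes in the remaining 2 tKO mice were 6.48 for Ctrb1, 4.99 for Cel and 2.102 for Prss2, against 2.06, 2.82 and 1.29 in all 4. Both mice were chosen for their immature counts of these 3 genes, which fixes the direction of that change.

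**Figure D4:**
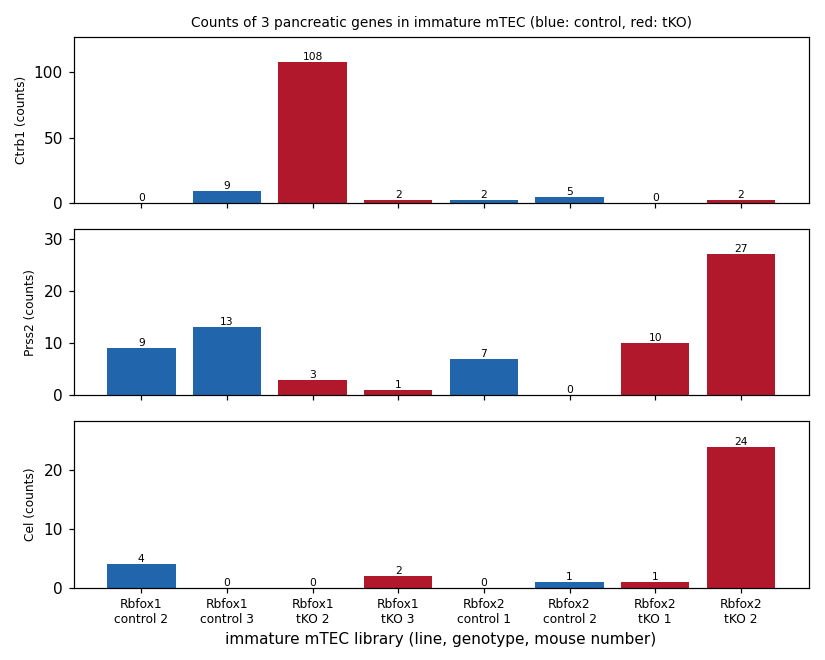
Counts of Ctrb1, Prss2 and Cel in the 8 immature mTEC libraries, with blue bars for control and red bars for tKO mice, each axis starting at 0. A single library holds 108 of the Ctrb1 counts, and another holds 27 counts of Prss2 and 24 of Cel.

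Among mature libraries, the spread was near the background for most members and much larger for a few. For the 27 members with at least 80 counts over the 8 mature libraries, the median chi-square per degree of freedom was 2.16, against 1.99 for all such rows. Gp2 reached 41.4, Sis 18.9 and Mgam 14.8. Sis, sucrase-isomaltase, had 79.2, 56.1, 31.7 and 53.7 CPM in control and 62.2, 41.2, 51.1 and 39.4 CPM in tKO mice, in the same order of lines and mice. Mgam, maltase-glucoamylase, had 79.2, 81.6, 61.0 and 74.5 CPM in control and 92.9, 77.3, 72.2 and 40.8 CPM in tKO mice. Control and tKO ranges overlapped for both genes.

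Levels were ordered per length, as CPM per kb of exon in mature control libraries. The highest was Pgc at 119.9 ± 10.7 (SD, n = 4), followed by Gp2 at 103.3 ± 20.1, Fabp6 at 96.1 ± 3.79 and Ctrb1 at 68.9 ± 10.2. The ranges of the first 3 overlapped from each to the next, while Ctrb1 lay below Fabp6 and above Fabp1 without overlap. Fabp1 came next at 29.6 ± 4.80, then Vil1 at 22.9 ± 3.30, Atp4a at 18.3 ± 3.05, Prss2 at 16.9 ± 4.45, Anpep at 15.3 ± 1.48 and Fabp2 at 15.2 ± 3.44. From Fabp1 down to Pga5 at 7.08 ± 0.99 each member overlapped with its neighbour in the order, and 30 of the 34 neighbouring pairs overlapped in all. The order is therefore not resolved beyond these few steps. The members of the 3 organs were interleaved in it, with the lowest 8 places taken by 7 pancreas genes and Lct.

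Loss of Rbfox1 or Rbfox2 was then examined for its effect on gene counts. The paper reported many splicing changes in mature mTEC of such mice, and only minor ones in expression. Splicing was not measured here. In mature mTEC 27 members were tested and none was called in the Rbfox1 line, where 0.0166% of 18021 genes were called, nor in the Rbfox2 line, where 0.0277% were (0.0222% higher and 0.00555% lower). In immature mTEC 8 members were tested and none was called in either line, against 0.0306% of 13060 genes in the Rbfox1 line and 0.0536% in the Rbfox2 line (0.0383% higher and 0.0153% lower). The median log2 fold change of tKO over control in mature mTEC was 0.04 in the Rbfox1 line and -0.01 in the Rbfox2 line, against medians of 0.00178 and 0.00116 for all genes tested. For the 8 members in immature mTEC it was -0.03 and 0.39, against 0.00201 and -0.000219. DESeq2 called no member in these 4 comparisons.

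Stomach members lay between -0.06 and 0.56 on the log2 scale in mature mTEC of the Rbfox1 line and between -0.21 and 0.25 in that of the Rbfox2 line. Pgc had 174 and 179 CPM in Rbfox1 tKO and 166 and 197 CPM in Rbfox2 tKO mice. Both Rbfox1 tKO values were above the 158.1 and 158.7 CPM of their controls, with a log2 fold change of 0.14 (SE 0.10). In the Rbfox2 line the tKO values lay on both sides of the higher control value of 188.8 CPM. Gut members ranged from -0.39 to 0.23 and from -0.25 to 0.63, and pancreas members from -0.15 to 0.97 and from -0.48 to 0.32.

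A few members had an unadjusted p under 0.05 and failed the correction over all genes. Cela1, an elastase with few counts, had 4.25 and 7.16 CPM in mature libraries of Rbfox1 tKO mice against 2.59 and 3.13 CPM in controls, a log2 fold change of 0.97 (SE 0.41, adjusted p = 0.9996 in edgeR's test), higher in 2 of 2 mice. Guca2b, which encodes uroguanylin, had 13.6 and 16.5 CPM in mature Rbfox2 tKO libraries against 10.3 and 10.7 CPM, a log2 fold change of 0.54 (SE 0.23, adjusted p = 0.88). These were 1 of 27 members in each line, where 3.35% and 5.34% of all genes tested had an unadjusted p under 0.05.

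**Figure D5:**
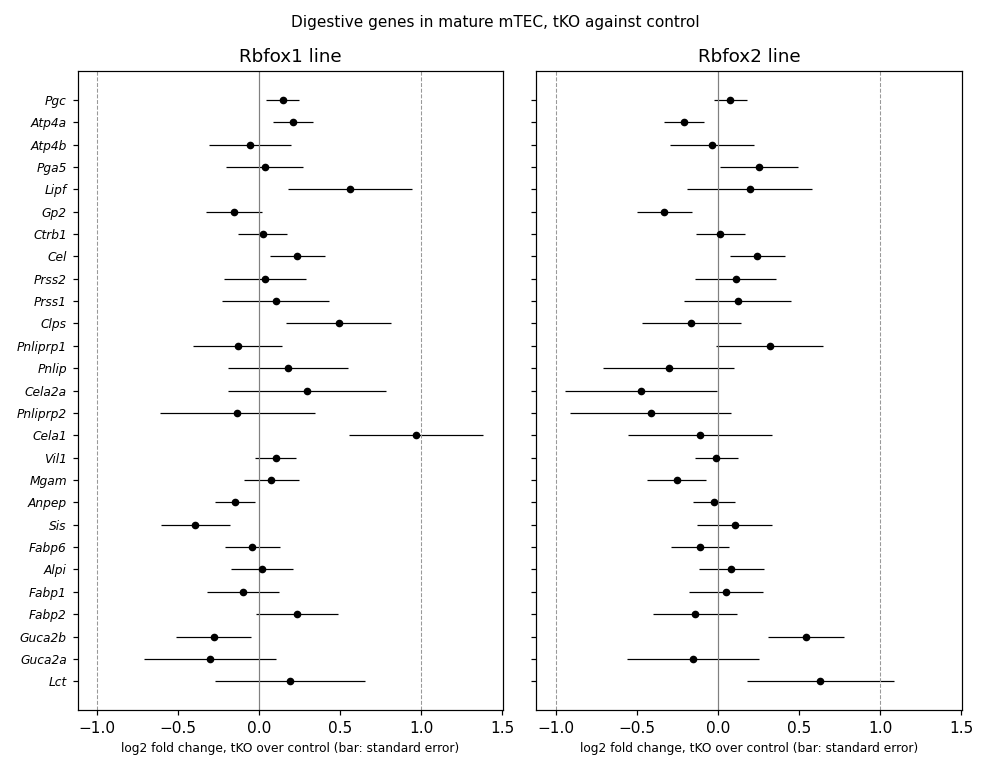
Log2 fold change of tKO over control in mature mTEC for the 27 members tested, in the Rbfox1 line (left) and the Rbfox2 line (right), with bars of 1 standard error and dashed lines at the threshold of 1 in each direction. All points lie inside the dashed lines, Cela1 of the Rbfox1 line being the nearest at 0.97.

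Among the 8 members that passed the filter in immature mTEC, Prss2 had the largest differences, in opposite directions in the 2 lines. Rbfox1 tKO mice had 3 and 1 counts against 9 and 13 in controls, a log2 fold change of -2.17 (SE 0.92, adjusted p = 0.818). Rbfox2 tKO mice had 10 and 27 counts against 7 and 0, a log2 fold change of 2.67 (SE 0.74, adjusted p = 0.444). The difference between the lines had an adjusted p of 0.872 in edgeR's test, from a comparison added after the data were seen, in which 0.00766% of genes passed in immature and 0.00555% in mature mTEC. Gp2 in immature mTEC also differed at an unadjusted p under 0.05 in the Rbfox2 line, with 167 and 209.5 CPM in tKO against 138 and 99.99 CPM in control mice (log2 fold change 0.66, SE 0.27, adjusted p = 0.752). In the Rbfox1 line it had 71.2 and 179 against 168 and 132 CPM, with overlapping ranges. Without a filter on low counts, Prss2 (adjusted p = 0.000814) and Cel (log2 fold change 4.63, adjusted p = 0.000334) were called in the Rbfox2 line. Ctrb1 was called in the Rbfox1 line without the filter (log2 fold change 3.73, adjusted p = 1.09e-14) or when the immature library of mouse 3 of the Rbfox1 tKO mice was left out (log2 fold change 4.68, adjusted p = 0.00772). Each of the calls of Ctrb1 and Cel rested on the single library with 108 or 24 counts.

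Control mice of the 2 lines were also set against each other, after the data were seen. No member was called in mature mTEC, where 0.527% of genes were (0.228% higher and 0.3% lower in the Rbfox2 line), or in immature mTEC, where 4.1% were (1.41% and 2.69%). Among the 27 members tested in mature mTEC, 5 had an unadjusted p under 0.05, against 17% of all genes. Gp2 was one of these, at a log2 difference of 0.48 in favour of the Rbfox2 line (SE 0.17, adjusted p = 0.146).

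Further digestive genes outside the 35 were also counted, beside the 23.7% of all genes that were higher in mature control mTEC. As with the members, those that passed the filter through the mature libraries alone had to differ, so the counts are descriptions. Of 14 further stomach genes, 12 were tested in control mice and 11 were higher in mature mTEC, led by Hdc, histidine decarboxylase of the histamine-making cells, at 1120 ± 7.01 against 70.5 ± 36.6 CPM (SD, n = 4), and by the ion transporter Slc26a9 at 29.3 ± 4.57 against 3.27 ± 1.76 CPM. Kcnq1 was not called (log2 fold change -0.26, SE 0.35). Of 22 further pancreas genes only 7 were tested and 6 were higher. Their highest levels were those of Klk1, kallikrein 1, at 36.7 ± 7.24 against 20.1 ± 8.01 CPM and not called (log2 fold change 0.85, SE 0.17), and Rnase1, pancreatic ribonuclease, at 34.3 ± 6.33 against 11.5 ± 0.66 CPM. The amylase genes Amy2a1, Amy2a2, Amy2a4 and Amy2a5 had no count in control mice, and Amy2a3 had 1. These genes are similar copies, and reads that match several of them could be missed. Their counts therefore do not show that pancreatic amylase transcripts were absent.

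Of 30 further gut genes 24 were tested and 24 were higher in mature control mTEC. In tKO mice, where 23.2% of all genes were higher, the counts were 10 of 10 tested for the further stomach, 6 of 8 for the pancreas and 22 of 25 for the gut genes. The highest levels were those of Reg3g, an antibacterial lectin, at 749 ± 116 against 199.8 ± 43.9 CPM, and Cdh17, a cadherin of enterocytes, at 183 ± 28.4 against 12.0 ± 4.36 CPM. Reg3g had log2 fold changes of 1.85 (SE 0.14) in control and 0.83 (SE 0.16) in tKO mice, of which the second was under the threshold for calls. The test of that difference gave an adjusted p of 0.448 (log2 -1.04, SE 0.22). None of these genes was called between tKO and control mice.

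Regulators of digestive organs were unequally represented. Of 16 listed, 9 were tested and all 9 were higher in mature control mTEC, against 23.7% of all genes tested. Regulators that passed the filter on low counts through the mature libraries alone had to differ, so this count is a description. Aire had 1052 ± 471 against 147 ± 133 CPM and a log2 fold change of 3.09 (SE 0.24). Its spread followed the lines, since controls of the Rbfox2 line were lower than those of the Rbfox1 line by log2 -1.07 in mature (SE 0.11, adjusted p = 2.12e-05) and -2.74 in immature mTEC (SE 0.25, adjusted p = 5.17e-06, both from edgeR). Fezf2 had 650 ± 35.4 against 262 ± 54.5 CPM and a log2 fold change of 1.28 (SE 0.10). The gut regulators Cdx1 and Cdx2 and the broader factor Gata4 were also among those higher. Among regulators known from acinar cells, Nr5a2 had 151 mature and 8 immature counts over the control libraries and was called higher (log2 fold change 3.08, SE 0.39). Ptf1a had 64 and 2 counts, with 9 to 20 in each mature library, and was not tested. Bhlha15 had 20 and 5 counts and Rbpjl 3 and 2.

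Markers of other cells moved with maturation too, and their part in the values of the digestive genes was not tested. Of all genes tested in control mice, 23.7% were higher and 10.8% lower in mature mTEC. Markers that passed the filter on low counts through the mature or the immature libraries alone had to differ. The numbers of markers called are therefore descriptions. Of 6 tuft cell markers 5 were lower in mature control mTEC, with a summed level of 167 to 257 CPM in mature and 472 to 855 CPM in immature control libraries. Of the 5 microfold cell markers tested 3 were higher (Sox8, Ccl20 and Ccl9), with sums over 6 genes of 1197 to 1478 against 673 to 787 CPM. These sums came mainly from Marcksl1, which was not called (mean 950 against 548 CPM). In tKO mice 2 of the 5 microfold markers tested were higher. Myeloid markers were higher in 3 of 3 tested, with sums over 4 genes of 241 to 325 against 15.2 to 24.2 CPM, mainly from Lyz2, while Itgam was at 0 in immature control libraries. Thymocyte and blood markers were higher in 3 of 3 tested, at 48.1 to 58.6 against 3.46 to 23.45 CPM over 6 genes. Fibroblast markers were lower in 3 of 4 and endothelial ones in 3 of 3, with sums of 318 to 390 against 283 to 1531 CPM and of 22.5 to 23.7 against 19.5 to 98.3 CPM. None of these markers was called between tKO and control mice. Between the lines, 4 of 4 fibroblast markers were higher in immature mTEC of Rbfox2 than of Rbfox1 control mice, with sums of 1360 and 1531 against 283 and 480.2 CPM, while none was called in mature mTEC.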

How the data were processed

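RNA-seq was done on poly(A) RNA of 16 mTEC libraries. The authors deposited counts of reads per gene in 1 table of 89407 rows, without normalization, after down-sampling. Reads had been aligned to mm10 (HISAT2 2.1.0), cleared of duplicates (Picard 2.10.9) and counted (featureCounts 1.6.0), per the submitters' processing notes and the methods. Libraries were stranded, and the use of strand in counting is not stated there. The members and gene lists were chosen with earlier results of these data known.

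The quasi-likelihood test of edgeR 4.0.16 (R 4.3.3) was run with TMM scaling after filterByExpr (minimum count 10). A call needed an adjusted p (Benjamini and Hochberg) below 0.05 together with a log2 fold change beyond 1 in size, or the adjusted p alone for interactions. Mature and immature mTEC were compared within control and within tKO mice with line as a covariate. tKO and control mice were compared in a joint model of a population's 8 libraries. Replicates are mice, and mature and immature libraries of a number come from the same mouse, with deviations from condition means correlating by 0.0885 to 0.164.

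Values per library and full statistics were given by rule for the 3 members of each organ with the highest CPM per kb in mature control libraries, for members called lower in mature mTEC or called in a tKO comparison, and for members at 0 throughout. Of further lists the 2 genes with the highest CPM were named. Other genes were named after their values were seen. Alternatives were DESeq2 1.42.0, other scalings, filters, blocks and library sets, and each library left out. In simulated counts for mature mTEC, the Rbfox1 comparison (17595 genes) found 92% of 4-fold and 39.4% of 2-fold changes, and the Rbfox2 comparison (17609 genes) 84% and 36.4%. Intervals of count ratios were exact (Clopper-Pearson, 95%). Results for 1 listed regulator are not reported here.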

Additional observations from a re-analysis of the deposited data

Results flagged for a closer look

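Within groups of 4 libraries of a population and genotype, the CPM of each member was checked for a library that stood apart by Dixon's ratio, where at least 1 library had 10 counts. Of 73 such groups 4 had one, and chance flags about 1 in 20 groups.

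Ctrb1 had 49.6 CPM in the immature library of mouse 2 of the Rbfox1 tKO mice, against 0 to 1.32 CPM in the other tKO immature libraries. Cel had 15.8 CPM in the immature library of mouse 2 of the Rbfox2 tKO mice, against 0 to 1.05 CPM. In mature control libraries, Pgc had 188.8 CPM in mouse 1 of the Rbfox2 line, against 158.1 to 160.3 CPM. Cpb1 had 2.91 CPM in mouse 3 of the Rbfox1 line, from 13 counts, against 1.29 to 1.49 CPM.

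Gp2 differed between genotypes in its maturation difference, by -0.41 on the log2 scale, in the fit with the mouse as a block (adjusted p = 0.0411). Without the block the difference was -0.42 (SE 0.25, adjusted p = 0.966), both from edgeR's test. Both fits average over the lines, and the smaller difference in tKO mice was plain in the Rbfox2 line only.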

How the results depend on the processing

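The number of members called higher in mature mTEC was 21 in control and 19 in tKO mice, and stayed within 1.5 times of these under DESeq2, other scalings, no filter, no fold threshold, the mouse block and other library sets. With at least 10 counts in every library it was 1 of 3 tested in each. Leaving out each library in turn gave 19 to 25 in control and 17 to 24 in tKO mice. No member was called between tKO and control mice in mature mTEC under any alternative run. In immature mTEC, without a filter, 1 was called in the Rbfox1 and 2 in the Rbfox2 line. Leaving out libraries gave 0 to 1 in the Rbfox1 line and 0 in the Rbfox2 line, and 0 in both mature comparisons and the interaction. The mouse block gave 1 member in the interaction, and changed no other count. A block by replicate number, which tKO and control mice share as a number only (correlations 0.0357 to 0.147), left 0 members called in the 4 tKO comparisons. For detection, asking for at least 5 counts gave a difference between populations of 17.2 members on average against 13.6. The cause was not tested. The sign turned for Anpep in control mice with at least 10 counts in every library (0.032), for Gp2 in tKO mice without the immature replicate 2 (-0.12) or the mature replicate 3 (-0.06) of the Rbfox1 line (range -0.12 to 0.33 over left-out libraries), and for Gp2 in immature mTEC of the Rbfox1 line without tKO replicate 2 (0.24, range -1.06 to 0.24). Prss2 lost its call in tKO mice without the line covariate (1.23, adjusted p = 0.0688) or without an immature Rbfox1 tKO library. Of 780 values of single members under alternatives, 772 kept direction and call. In immature mTEC only 8 members had enough counts for the tKO comparisons, and at equal depth 7.25 members there had at least 5 counts, against 24.5 in mature mTEC.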
